A study of Homo sapiens with 12 samples.

Results

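The genes described here are 40 genes of NF-kB signalling and inflammatory cytokines, taken from a fixed list of symbols. The list was chosen with earlier results of these data known, so shares of called members are descriptions. A member was followed on the probe set whose platform annotation gives that 1 symbol, and on the brightest over 12 arrays where there were several. Of the 40 genes, 38 had such a probe set, of 18417 genes with one on the array. A filter on dim probe sets kept 35 members among 16939 genes, and each comparison was fitted over these. The levels of BIRC3 and CSF2 were not analysed here. IL33, CXCL10 and SAA1 did not pass the filter and lay between 2.70 and 3.19 on every array.

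NF-kB is a family of dimeric transcription factors that is held in the cytoplasm by inhibitory IkB proteins. Receptors of interleukin-1 and tumour necrosis factor (TNF), acting through adaptors and kinases, lead to the breakdown of the inhibitors, and the freed dimers switch on cytokine, chemokine, adhesion and acute phase genes. Among the targets are genes of the pathway's own brakes, such as NFKBIA and TNFAIP3, so the response limits itself. In lung epithelial cells these genes are known for calling in monocytes and neutrophils during infection and injury.

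Affymetrix whole-transcript arrays gave the RNA levels of 2 established human lung cancer lines. They are A549, a lung adenocarcinoma line, and HTB56, the line Calu-6. The selected groups, A3R and H3R, went through 3 rounds in mice that favoured growth of lung nodules from intravenously given cells, and the unselected parents, A0R and H0R, through 0 rounds. Each of the 4 groups has 3 arrays, and no group was treated with 5-azacytidine. Whether the selected cells were clones or pools, and whether the 3 arrays came from separate cultures, the labels do not say, so p-values here reflect array-to-array spread alone, which may be technical. In such bulk samples, fewer expressing cells and less RNA per cell cannot be told apart.

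All levels are log2 RMA signals, so a difference of 1 is a 2-fold change, and a level of one gene cannot be set against that of another. Array medians lay between 5.55 and 5.67, and the 20th percentile of an array, under which a signal is close to background, averaged 3.48. Precision is limited by having 3 arrays a group. The keratin genes KRT8 and KRT18 were bright in all 4 groups, at means from 11.20 to 13.55. CDH1, the E-cadherin gene, averaged 4.50 in H3R and 4.55 in H0R, and NKX2-1, a defining factor of lung lineage, averaged 4.14 to 4.27 over the 4 groups. Of 13 leukocyte markers with a probe set, 2, PTPRC and FCGR3A, did not exceed the 20th percentile on any array. The others exceeded it on at least 1 array. A0R replicate 2 stood apart. Over 25 genes that are bright in HTB56 and dim in A549, its median excess over the A549 level was 0.86, where the remaining A549 arrays had -0.15 to 0.08. Calls of members that end without it are named.

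Promoter sequence from RefSeq (GRCh38.p14) shows the context of the members whose levels moved with selection. Windows of 300 bases, 250 before and 50 after a transcript start, were searched on both strands for the 10-letter kappaB consensus that NF-kB dimers bind and for the AP-1 motif TGANTCA. The promoter table held 28 of the 40 members. Of these, 12 (42.9%) had a kappaB match in at least 1 window, against 7.09% of the 27305 genes in the table, and 3 (10.7%) had an AP-1 match, against 9.37%. The list was made of NF-kB pathway and target genes, so its kappaB share describes that choice and is not a test. The 28 members also had more windows each, 41 in all, against 35116 for the 27305 genes. In IL32, NFKB2 and REL, a pair of kappaB matches overlaps by all but 1 base. Of the 10 members called in either line with selection, 6 were in the table, and 2 of these, TNFAIP3 and REL, had a kappaB match, while TNFSF15, IRAK2, ICAM1 and SERPINA3 had none. A match is a description of letters, not a bound site. A missing match does not show that a gene lacks a kappaB site, as 1 consensus was searched in short windows.

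The first 2 of the stretches below were chosen as those of the 2 called members with a kappaB match, TNFAIP3, which rose in selected A549 cells, and REL, which fell in selected HTB56 cells. NFKBIA, the inhibitor gene that was called in neither line, is shown beside them. Each stretch is the 130 bases just before a transcript start, with kappaB matches in capitals (in REL, the 11 letters that its overlapping pair covers). TNFAIP3 lies at chr6:137867129-137867258 on the plus strand, REL at chr2:60881444-60881573 on the plus strand and NFKBIA at chr14:35404750-35404879 on the minus strand. The TNFAIP3 stretch lies inside the span of its gene (chr6:137866349-137883312), not before its outermost start.
TNFAIP3: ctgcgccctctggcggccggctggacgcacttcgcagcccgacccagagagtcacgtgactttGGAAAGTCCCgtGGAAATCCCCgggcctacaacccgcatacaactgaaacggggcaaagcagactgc
REL: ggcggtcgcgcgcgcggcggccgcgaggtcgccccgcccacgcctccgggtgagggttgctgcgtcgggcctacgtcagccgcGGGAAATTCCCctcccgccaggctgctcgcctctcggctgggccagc
NFKBIA: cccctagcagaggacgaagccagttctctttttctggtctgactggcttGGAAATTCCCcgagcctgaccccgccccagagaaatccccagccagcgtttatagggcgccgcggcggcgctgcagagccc

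TNFSF15, the member called in both lines, is shown with its AP-1 match in capitals, at chr9:114792531-114792660 on the minus strand. The transcript start it precedes lies inside the span of the gene (chr9:114784635-114806039), not at its outer end. The promoter table held 1 window of TNFSF15, so its outermost start was not searched.
TNFSF15: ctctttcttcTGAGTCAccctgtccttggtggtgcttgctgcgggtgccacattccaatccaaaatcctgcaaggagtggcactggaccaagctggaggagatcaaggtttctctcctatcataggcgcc

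Setting A3R against A0R asks which of these genes moved when A549 was selected. In A3R, 7 members were higher and 0 were lower, each gene called at a limma adjusted p below 0.05 over all genes. The 7 are 1 cytokine gene (TNFSF15), 2 chemokine genes (CCL2 and CX3CL1), 1 brake of the pathway (TNFAIP3), 1 adhesion gene (ICAM1), the protease inhibitor gene SERPINA3 and the complement gene C3. The 7 of 35 tested are 20%, where 0.945% of all genes were called higher and 0.809% lower. The median change of the 35 members was 0.26, against -0.01 over all genes, and 28 of the 35 changes were positive. Because the members were chosen with earlier results of these data known, this excess is not an independent test. Without A0R replicate 2 the count was 6, with TNFAIP3 no longer called. No NF-kB subunit gene was among the 7.

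Among the cytokine genes, TNFSF15, which encodes the TNF family ligand TL1A, read 6.74, 6.96 and 6.65 in A3R, against 4.77, 4.93 and 5.28 in A0R. All A3R arrays lay above all A0R arrays, a rise of 1.79 (SE 0.14, 3.45-fold, limma adjusted p = 9.49e-06). The other 10 tested cytokine genes were not called in A549. IL1A, the interleukin-1 alpha gene, averaged 4.63 ± 0.34 in A3R and 3.95 ± 0.24 in A0R (SD, n = 3 each, limma adjusted p = 0.099), and passed the threshold without A3R replicate 1 (0.0478). IL32 averaged 6.79 ± 0.13 in A3R and 6.25 ± 0.29 in A0R. Its groups did not overlap, with a limma adjusted p of 0.107, of 0.0356 with the replicate number as a block and of 0.0178 without A0R replicate 3. IL1B, IL6, IL11, IL18, LIF, TNF, CSF1 and CSF3 had changes between -0.15 and 0.57. IL6 read at most 3.74 on any array, close to background.

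Both chemokine genes that rose act on monocytes. CCL2, which encodes the monocyte attractant MCP-1, read 10.74, 10.85 and 10.68 in A3R, against 9.25, 9.17 and 9.53 in A0R. The groups were separated by more than the spread within either, a rise of 1.44 (SE 0.12, 2.71-fold, limma adjusted p = 1.21e-05). CX3CL1, the gene of the membrane-anchored chemokine fractalkine, read 7.87, 7.75 and 7.79 in A3R, against 6.48, 6.42 and 6.78 in A0R. It rose by 1.24 (SE 0.12, 2.37-fold, limma adjusted p = 4.79e-05), again with no overlap. CCL5, CCL20, CCL26 and CXCL16 were not called, at changes between -0.52 and 0.42. CCL20, an attractant of CCR6-bearing lymphocytes and dendritic cells, spread widely in A3R, at 7.45, 8.15 and 6.87, against 7.04, 6.77 and 7.39 in A0R.

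ICAM1 encodes the adhesion molecule that leukocyte integrins bind. Its signal was 8.30, 7.47 and 7.82 in A3R, against 6.52, 6.59 and 6.72 in A0R. The lowest A3R array stood above the highest A0R array, at a rise of 1.25 (SE 0.19, 2.38-fold, limma adjusted p = 0.002). VCAM1, the other adhesion gene, lay between 3.51 and 3.94 on the A549 arrays and was not called (change 0.12, limma adjusted p = 0.867).

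Among the acute phase and complement genes, SERPINA3, which encodes alpha-1-antichymotrypsin, read 7.46, 7.48 and 7.21 in A3R, against 5.60, 5.66 and 6.11 in A0R. It rose by 1.59 (SE 0.15, 3.02-fold, limma adjusted p = 4.01e-05) with no overlap. C3, the central complement component, read 9.15, 8.87 and 9.13 in A3R, against 7.74, 7.33 and 7.99 in A0R, a rise of 1.37 (SE 0.23, limma adjusted p = 0.00522). CFB, which encodes complement factor B, read 6.90, 7.75 and 7.97 in A3R, against 5.86, 6.28 and 6.95 in A0R. The groups overlapped by 1 array each, and the change of 1.18 (SE 0.29) gave a limma adjusted p of 0.0572. That p was 0.0135 without A0R replicate 3, 0.0164 without A3R replicate 1, 0.0467 with the mean of its 3 probe sets and 0.0496 with arrays centred on their median.

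Of the brakes and adaptors, TNFAIP3, which encodes the deubiquitinating enzyme A20, read 7.19, 7.27 and 7.16 in A3R, against 6.71, 6.29 and 6.50 in A0R. It rose by 0.71 (SE 0.14, 1.63-fold, limma adjusted p = 0.0147) with no overlap. The call was lost without A0R replicate 2 (0.0811), A3R replicate 1 (0.0527) or A3R replicate 2 (0.0674). IRAK2, a kinase-like adaptor of interleukin-1 and Toll-like receptors, read 7.55, 7.47 and 7.49 in A3R, against 7.04, 6.86 and 6.87 in A0R. These groups did not overlap either, yet the change of 0.58 missed the threshold (SE 0.15, limma adjusted p = 0.0816). NFKBIZ, which encodes the nuclear cofactor IkB-zeta, changed by 0.57 (SE 0.15, limma adjusted p = 0.0835). Fitted with the replicate block, IRAK2 had 0.0495 and NFKBIZ 0.0153 as adjusted p. For IRAK2 it was 0.0352 over the A549 arrays alone and 0.0293 without H0R replicate 2.

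NFKBIA, NFKBIE and TRAF1 were not called, at changes of 0.26, 0.19 and 0.18. NFKBIA, which encodes the classic inhibitor IkB-alpha, read 10.09, 10.08 and 10.10 in A3R, against 9.91, 9.69 and 9.89 in A0R, a difference with no overlap and a limma adjusted p of 0.44. The DNA-binding subunit genes NFKB1, NFKB2, REL, RELA and RELB had changes between -0.13 and 0.41. The largest was that of RELB, of the non-canonical arm, at 7.29 ± 0.17 in A3R and 6.88 ± 0.17 in A0R (limma adjusted p = 0.155). TNFAIP2 changed by 0.29, and SOD2, the mitochondrial superoxide dismutase gene and a classic TNF target, by 0.16, both uncalled.

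**Figure D1:**
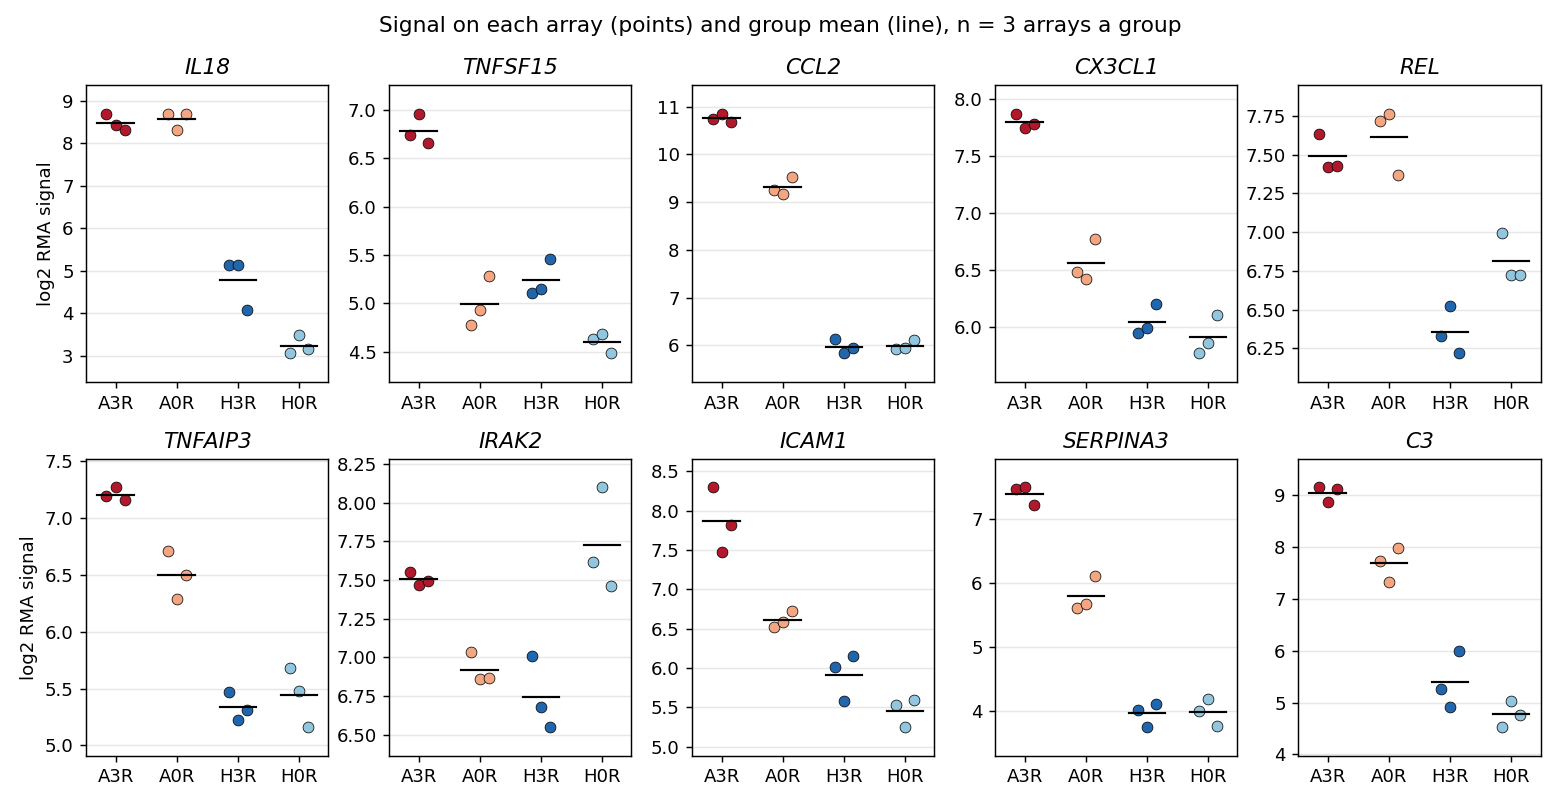
Log2 RMA signal of the 10 members called in either line, with A3R, A0R, H3R and H0R from left to right, a point for each array and a line at the mean of 3 arrays. CCL2 sits between 10.68 and 10.85 in A3R, above 9.17 to 9.53 in A0R, while its H3R and H0R points overlap. Vertical axes differ between panels and do not start at 0.

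For HTB56 the same question is put to H3R and H0R. There 2 members rose, the cytokine genes IL18 and TNFSF15, and 2 fell, the adaptor gene IRAK2 and the subunit gene REL. These are 5.71% of the 35 tested in each direction, where 8.57% of all genes were called higher and 10.9% lower. With so few called, no difference from all genes is read from these shares. The median change of the members was 0.00, against 0.02 over all genes. With the replicate number as a block, 9 members were called, 6 higher and 3 lower, or 25.7%, against 28% of all genes in that fit. The additional 5 were LIF, RELA, ICAM1 and C3 higher and NFKBIZ lower.

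IL18, which encodes a cytokine of the interleukin-1 family that induces interferon-gamma, read 5.14, 5.12 and 4.07 in H3R, against 3.06, 3.48 and 3.15 in H0R. All H3R arrays lay above all H0R arrays, at a rise of 1.55 (SE 0.23, 2.93-fold, limma adjusted p = 0.000272). With an H0R mean of 3.23, below 3.48 at the 20th percentile, the change has a size that depends on background. TNFSF15 read 5.11, 5.15 and 5.46 in H3R, against 4.63, 4.69 and 4.49 in H0R, a rise of 0.64 (SE 0.14, 1.56-fold, limma adjusted p = 0.00471) with no overlap.

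IRAK2 showed the largest fall among the members. It read 7.01, 6.68 and 6.55 in H3R, against 7.62, 8.10 and 7.46 in H0R, and fell by 0.98 (SE 0.15, limma adjusted p = 0.000362) with no overlap. REL, which encodes the subunit c-Rel, read 6.33, 6.53 and 6.22 in H3R, against 6.99, 6.72 and 6.72 in H0R, and fell by 0.46 (SE 0.13, limma adjusted p = 0.0229). Its groups did not overlap, but the call was lost without H0R replicate 1 (0.113), H3R replicate 1 (0.068) or H3R replicate 3 (0.0948).

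The other subunit genes were uncalled in HTB56. RELA, the gene of the transactivating subunit p65, averaged 9.12 ± 0.09 in H3R and 8.87 ± 0.06 in H0R (SD, n = 3 each, limma adjusted p = 0.0876, 0.0227 with the block and 0.0314 after cyclic loess). LIF, a cytokine of the interleukin-6 family, averaged 6.91 ± 0.05 in H3R and 6.38 ± 0.29 in H0R (limma adjusted p = 0.062). That p was 0.00642 with the block, and it also passed after cyclic loess (0.0456), over the HTB56 arrays alone (0.0231), without A0R replicate 1 (0.0422) and without A3R replicate 3 (0.0278). IL1A changed by 0.49 (limma adjusted p = 0.0808), with 0.049 over the HTB56 arrays alone and 0.0288 without H0R replicate 2.

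Of the 7 genes that rose in A549, TNFSF15 was the 1 called in HTB56. CCL2 averaged 5.97 ± 0.15 in H3R and 5.99 ± 0.10 in H0R, a change of -0.02 with a 95% interval of -0.27 to 0.23. SERPINA3 averaged 3.97 ± 0.19 in H3R and 3.99 ± 0.21 in H0R, dim levels not far above 3.48 at the 20th percentile. TNFAIP3 averaged 5.33 ± 0.12 in H3R and 5.44 ± 0.26 in H0R. ICAM1 and C3 were higher by 0.46 and 0.62 with overlapping arrays (limma adjusted p = 0.114 and 0.0798). With the block these p were 0.033 and 0.0434, and without H3R replicate 2 they were 0.044 and 0.0214. The change of NFKBIZ was -0.38 (limma adjusted p = 0.0966, 0.0193 with the block).

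Markers of other cell types were read beside these changes. Of 7 fibroblast markers tested, 4 rose in H3R, COL1A1, COL3A1, LUM and PDGFRA, while DCN and FAP exceeded the 20th percentile on no array. These 4 are 57.1%, beside 8.57% of all genes called higher in H3R. The summed linear signal of the 9 fibroblast markers was 783 to 842 in H3R and 430 to 508 in H0R. Of 11 leukocyte markers tested, CD68 and LYZ rose (18.2%) and NCAM1 fell (9.09%), beside 8.57% and 10.9% of all genes. The summed leukocyte signal was 957 to 1167 in H3R and 863 to 935 in H0R. In A549 0 of the 11 leukocyte, 7 fibroblast and 6 endothelial markers tested were called by limma, and 1, 1 and 0 had an unadjusted p below 0.05. Of 6 epithelial markers, 1 was called higher and 1 lower in A549 (16.7% each), and also 1 and 1 in HTB56. Over all genes 0.945% were called higher and 0.809% lower in A549. LUM, a gene of matrix-producing cells, passed in A549 with the block (0.0169), over the A549 arrays alone (0.00524) and without H0R replicate 3 (0.0229) or H3R replicate 2 (0.0369). CD68, a macrophage gene, had a change of -0.44 in A549 and passed with the block (0.00924). Whether such cells were present, and any part of theirs in the HTB56 changes, was not tested.

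**Figure D2:**
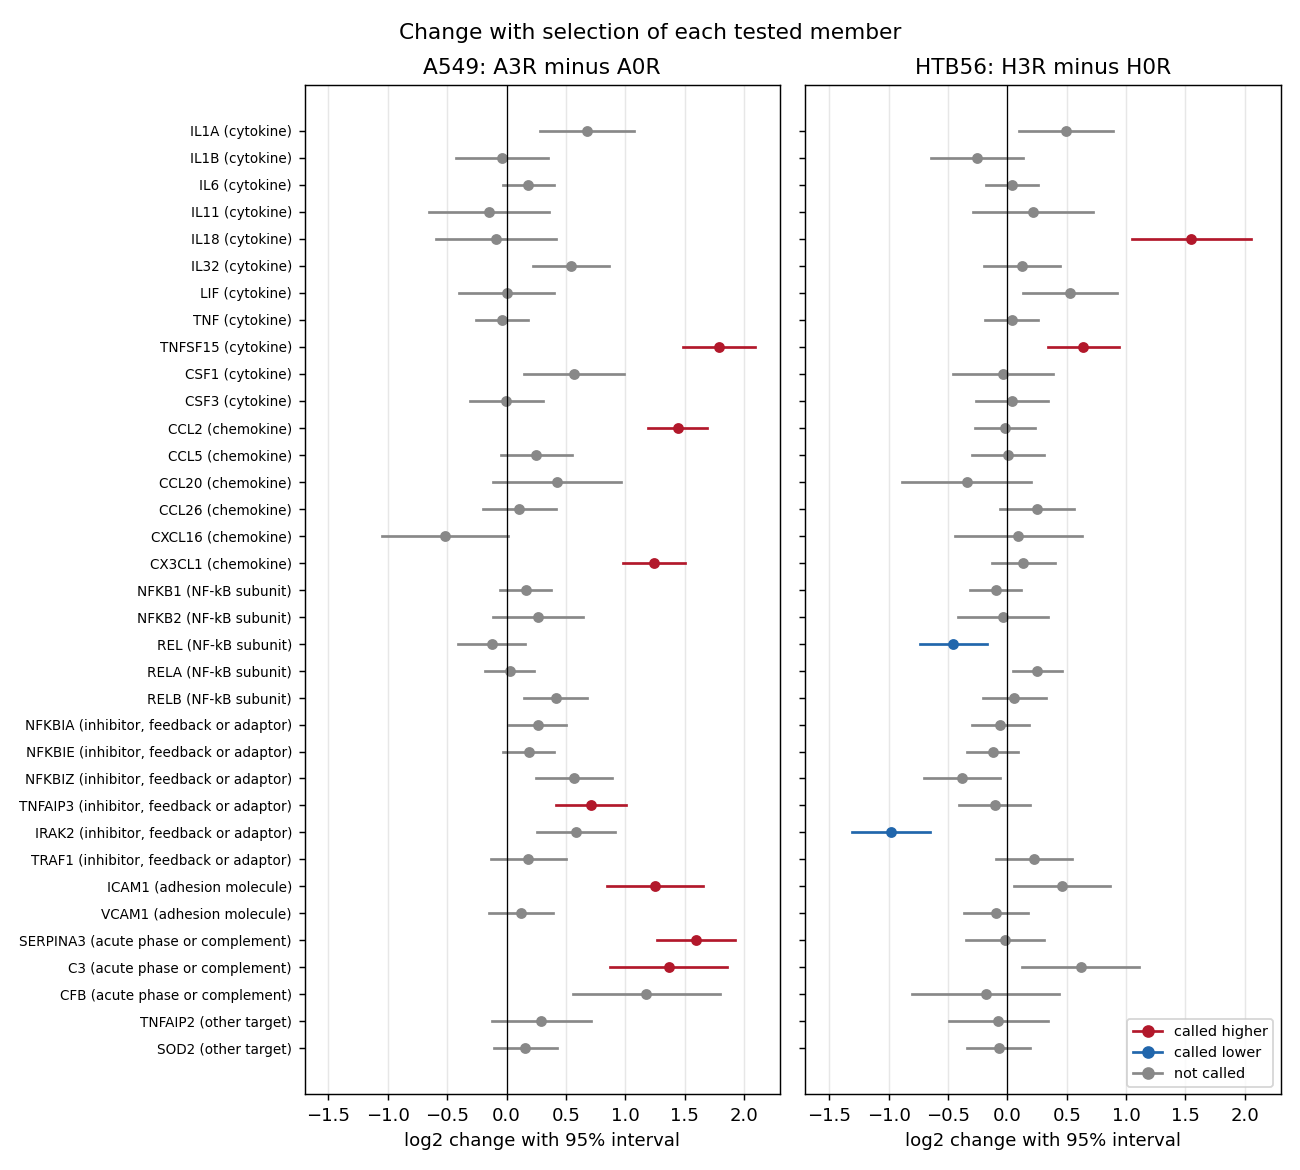
Log2 change with selection of the 35 tested members (points) with 95% intervals (lines), A549 on the left and HTB56 on the right, listed by role. In A549, 7 members were called higher and 0 lower, and in HTB56, 2 were called higher and 2 lower.

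The difference between the lines was tested as the HTB56 change minus the A549 change. For 9 members the lines differed in how selection moved the gene, 1 with the more positive change in HTB56 and 8 with the more positive one in A549. Of the 35 tested these are 2.86% and 22.9%, where 5.22% of all genes had a called positive difference and 6.58% a called negative one. Without A0R replicate 2 the count was 8, with CFB no longer called. The median difference of the members was -0.31, against 0.02 over all genes. IL18 was the member with a positive difference, at 1.64 (SE 0.33, limma adjusted p = 0.00459), with a change of 1.55 in HTB56 and -0.09 in A549.

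SERPINA3 had the largest negative difference, at -1.61 (SE 0.22, limma adjusted p = 0.000189), followed by IRAK2 at -1.57 (SE 0.22, limma adjusted p = 0.000243). The HTB56 side of the SERPINA3 difference is limited by its dim signal there. IRAK2 changed by -0.98 in HTB56 and by 0.58 in A549. NFKBIZ also had changes of opposite sign, -0.38 in HTB56 and 0.57 in A549, and a difference of -0.95 (SE 0.21, limma adjusted p = 0.00855). The change of NFKBIZ itself missed the threshold in both lines without the block and passed it in both with the block.

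The differences of CCL2 (-1.46), TNFSF15 (-1.15), CX3CL1 (-1.11) and TNFAIP3 (-0.82) were also called, at limma adjusted p from 4.56e-05 to 0.0132. TNFSF15 thus rose in both lines and rose less in HTB56. CFB, with a difference of -1.36, had a limma adjusted p of 0.0426, which ranged from 0.0105 to 0.109 over 19 alternatives and missed the threshold in 9 of them. These 9 were eBayes with trend and robust settings and the fits without A0R replicate 1 or 2, A3R replicate 2 or 3, H0R replicate 2 or 3, or H3R replicate 2 or 3. ICAM1 and C3 rose in A549 and were not called in HTB56, but the differences of -0.79 and -0.75 were not called (limma adjusted p = 0.0706 and 0.174). With the block ICAM1 passed at 0.0174 and LIF at 0.0497. ICAM1 also passed without A3R replicate 2 (0.0206) or H3R replicate 3 (0.0495), C3 without H3R replicate 3 (0.0193) and CCL20 without A3R replicate 3 (0.0308).

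**Figure D3:**
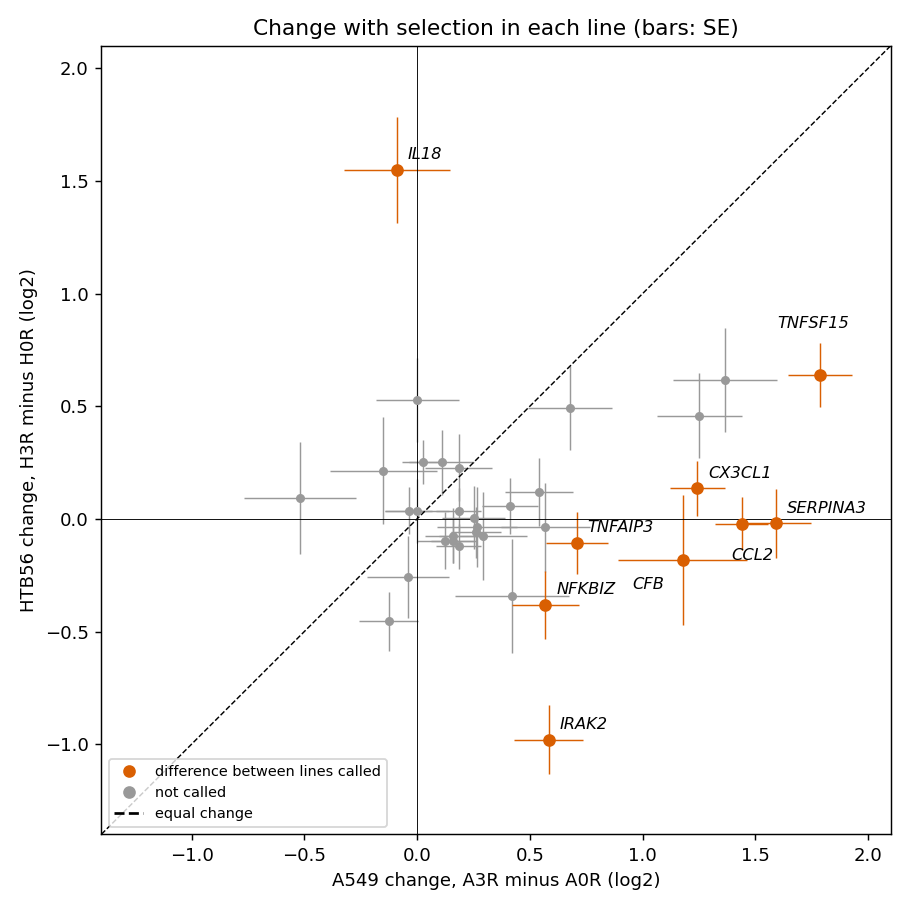
Log2 change with selection of the 35 tested members in A549 (horizontal) and HTB56 (vertical), with SE bars and a dashed line where both would be equal. Orange points mark the 9 members with a called difference, of which IL18 lies above the line and 8 lie below it.

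Most members differed between the lines, before and after selection. In unselected cells 25 of 35 members were called, 4 higher and 21 lower in H0R than in A0R (11.4% and 60%), where 24.9% of all genes were called higher and 20.3% lower. In selected cells 29 were called, 4 higher and 25 lower in H3R than in A3R (11.4% and 71.4%), where 24.9% of all genes were called higher and 19.7% lower. The median difference of the members was -0.78 in selected and -0.56 in unselected cells, against 0.01 and -0.01 over all genes. Without A0R replicate 2, 24 members were called in unselected cells, with TNFSF15 and CCL5 no longer and NFKB2 newly among them. Markers of cell type moved with the line as well. Of 6 epithelial markers, 5 were lower in H3R than in A3R and 6 lower in H0R than in A0R. Their summed linear signal was 9811 to 10168 in H3R against 24663 to 25042 in A3R, and 9625 to 10502 in H0R against 25319 to 28304 in A0R. Of 7 fibroblast markers tested, 5 were higher in H3R, and in H0R 3 were higher and 1 lower, at a summed signal of 783 to 842 in H3R against 322 to 361 in A3R, and of 430 to 508 in H0R against 315 to 350 in A0R. Their part in the differences between lines was not tested. The pair of comparisons uses different arrays but 1 shared estimate of the spread.

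The cytokine gene with the largest gap was IL18, which read 8.69, 8.42 and 8.31 in A3R and 8.69, 8.31 and 8.69 in A0R. Set against these, the HTB56 difference was -3.70 in selected cells (SE 0.23, limma adjusted p = 8.62e-09). In unselected cells the difference was -5.34 (SE 0.23, limma adjusted p = 1.17e-10), with the H0R level near background. IL11, a cytokine of the interleukin-6 family, ran the other way, at 7.97 ± 0.28 in H3R against 6.27 ± 0.21 in A3R, and at 7.75 ± 0.58 in H0R against 6.42 ± 0.25 in A0R. LIF was lower in HTB56, at -1.07 in selected and -1.59 in unselected cells, as was CSF1, a growth factor gene of macrophages, at -1.62 and -1.01.

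All 6 tested chemokine genes had negative differences between the lines in both states. CCL2 differed by -4.78 between H3R and A3R (SE 0.12, limma adjusted p = 6.76e-13) and by -3.32 between H0R and A0R (SE 0.12, limma adjusted p = 1.44e-11). The differences of CCL20 were -3.36 in selected and -2.60 in unselected cells, and those of CXCL16, which encodes a membrane-bound chemokine, -2.43 and -3.04. CCL26 was called in neither state, and passed without H3R replicate 3 in both (0.0408 selected, 0.0461 unselected), and in unselected cells over the arrays compared alone (0.049).

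The 3 tested acute phase and complement genes were lower in HTB56. C3 differed by -3.66 in selected and -2.91 in unselected cells, SERPINA3 by -3.42 and -1.81, and CFB by -2.56 and -1.20. TNFAIP2, a gene first found as induced by TNF, averaged 7.38 ± 0.26 in H3R against 10.06 ± 0.34 in A3R, and 7.46 ± 0.29 in H0R against 9.77 ± 0.26 in A0R. For these 4 genes no HTB56 array reached an A549 array of the same state.

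Subunits and brakes did not all differ in one direction. NFKB1, the gene of the p105 precursor and p50, was higher in HTB56 by 0.31 in selected and 0.57 in unselected cells, and REL was lower, at -1.14 and -0.81. The selected difference of NFKB1 (limma adjusted p = 0.0211) was 0.15 and uncalled after cyclic loess (0.208). That of RELA was 0.29 (0.0254) and also 0.13 and uncalled there (0.208). Leaving out A3R replicate 2, H3R replicate 1 or H3R replicate 2 ended both calls, at 0.0635 to 0.101, and leaving out A3R replicate 3 ended that of RELA (0.0886), as did a fit of the arrays compared alone (0.0604). NFKBIA differed by -1.59 in selected and -1.27 in unselected cells, and TNFAIP3 by -1.87 and -1.06.

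NFKBIZ was higher in HTB56, by 0.77 in selected and 1.73 in unselected cells. IRAK2 was the 1 member called in both states with opposite signs, at 6.75 ± 0.24 in H3R against 7.51 ± 0.04 in A3R (difference -0.76, limma adjusted p = 0.000831), and at 7.73 ± 0.33 in H0R against 6.92 ± 0.10 in A0R (difference 0.81, limma adjusted p = 0.000495). That turn is the called difference of -1.57 between the lines given above.

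**Figure D4:**
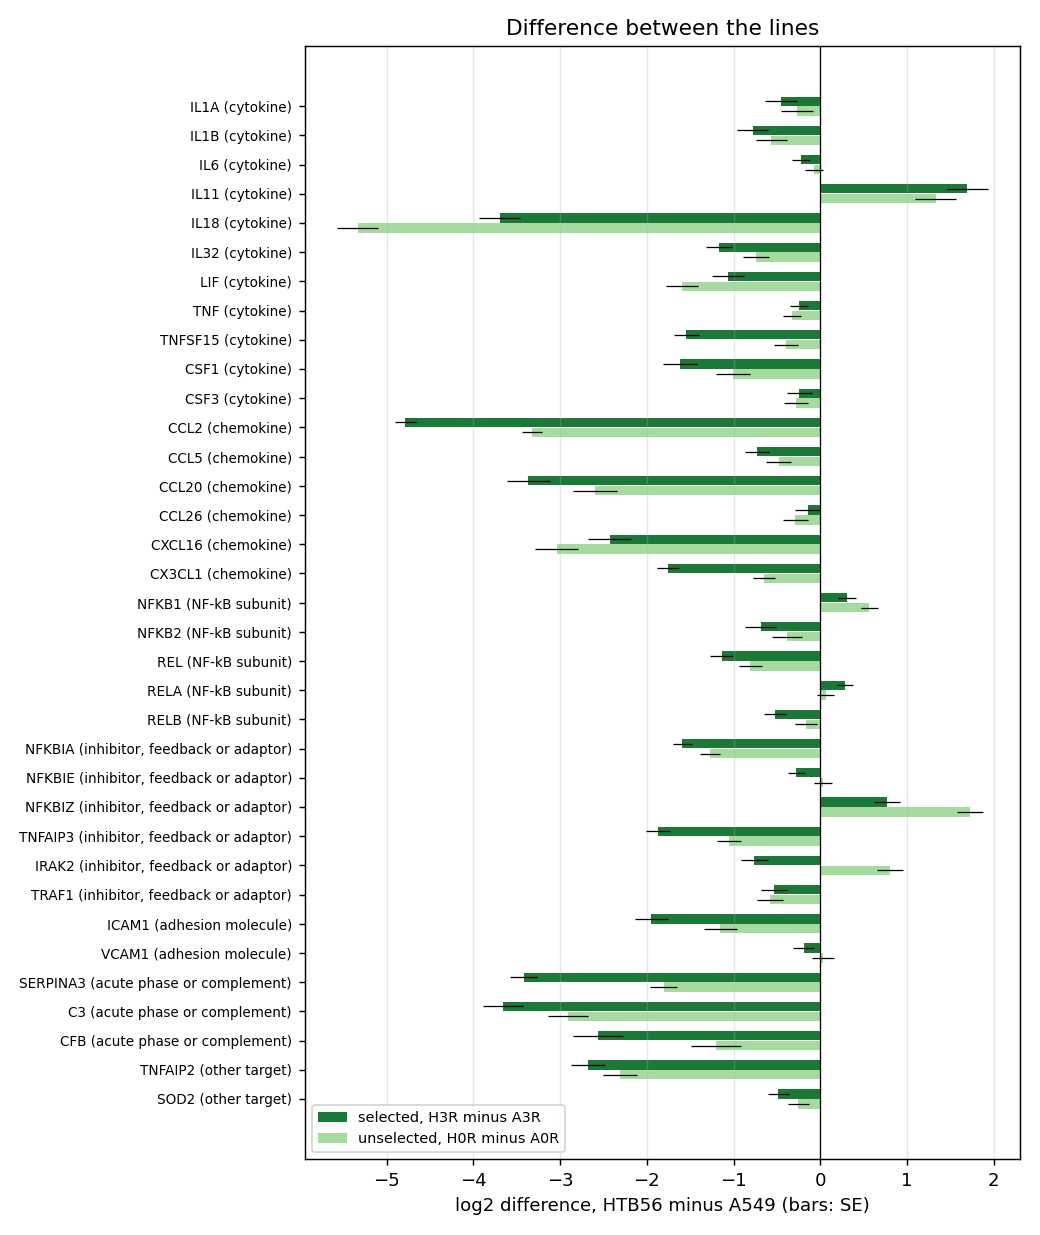
Log2 difference between HTB56 and A549 of the 35 tested members, with H3R minus A3R (dark) above H0R minus A0R (light) and SE bars, listed by role. Most bars point left, lower in HTB56, with 25 members called lower in selected and 21 in unselected cells, and IRAK2 has bars on both sides of 0.

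Other genes of the pathway were taken from lists of receptors, of adaptors and kinases, and of brakes and survival genes. In A549, 1 of 22 receptor genes rose, LIFR, the LIF receptor gene, at 0.70 (limma adjusted p = 0.0466). This call was lost under 12 of 20 alternatives, at up to 0.177, among them the fit without A0R replicate 2 (0.171). Among the receptors 1 fell, IL1R2, which encodes a decoy receptor of interleukin-1, at 5.49 ± 0.23 in A3R against 6.93 ± 0.29 in A0R (change -1.45, SE 0.16, limma adjusted p = 0.000154). By limma 0 of 21 adaptor and kinase genes and 0 of 15 brake and survival genes were called in A549, with 0 and 1 at an unadjusted p below 0.05. Beside these counts, 0.945% of all genes were called higher and 0.809% lower in A549.

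In HTB56 the pathway genes moved both ways. Of 22 receptor genes 13.6% rose and 13.6% fell, of 21 adaptor and kinase genes 9.52% and 4.76%, and of 15 brake and survival genes 13.3% and 13.3%, beside the 8.57% and 10.9% of all genes. Of the receptor genes 3 rose, LTBR, the lymphotoxin beta receptor gene (0.70), IL6ST, the gene of the shared receptor subunit gp130 (0.67), and TLR6 (0.60). The 3 that fell were CD40 (-0.72), TLR3 (-0.48) and IL1RAP (-0.47). Of the adaptor and kinase genes IRAK1 (0.52) and MYD88 (0.40) rose and TAB3 (-0.54) fell. Of the brake and survival genes OTULIN, a deubiquitinase gene (0.60), and BCL3 (0.39) rose, and CFLAR, which encodes the caspase-8 inhibitor FLIP (-0.63), and TAX1BP1 (-0.52) fell. The calls of TLR6, TLR3, IL1RAP, IRAK1, MYD88 and BCL3 were each lost without at least 1 HTB56 array, at limma adjusted p from 0.0525 to 0.17, and that of BCL3 also with arrays centred on their median (0.0625).

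The neutrophil-attracting chemokine genes, relatives of these members under the same pathway, had 5 of 6 called higher in A549 and 2 of 6 called lower in HTB56. Over all genes 0.945% were called higher in A549 and 10.9% lower in HTB56. CXCL1 changed by 1.67 in A549 and by -0.95 in HTB56, and CXCL8 by 1.48 and -1.55.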

How the data were processed

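The deposited values are log2 signals. The submitters' processing notes name RMA and Affymetrix Expression Console, without versions. The method subtracts background, equalises array distributions and combines each set's probes, which compresses differences of dim genes. Scanner files were not used here, so background correction and slide could not be varied. Of 33297 probe sets, 19460 had 1 gene symbol, 1754 several and 12083 none. Probe sets above the 20th percentile of their array on at least 3 of 12 arrays were kept, with the brightest standing for its gene. TNF has 3 probe sets with identical values and CFB 3 that differ by at most 0.61 on an array.

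For the 5 comparisons, limma 3.58.1 was run under R 4.3.3 (lmFit, eBayes, two-sided, Benjamini-Hochberg over 16939 genes, threshold 0.05), with 1 mean per group over all 12 arrays. The fit was tested on simulated data. Python 3.11.15 (pandas 2.3.3, matplotlib 3.10.9) gave the promoter search, summaries and plots. The members and lists were chosen with earlier results of these data known. All members may be named; of other pathway genes, those called in either line.

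Groups share replicate numbers of unstated meaning. Deviations from group means correlated at 0.16 to 0.549 between arrays of the same number and -0.417 to 0.204 otherwise, and for 12 of 12 arrays the closest were those of their own number. By these deviations, not by the design, the numbers pair the arrays. The blocked fit is printed wherever it alters a call of a member. For other genes, the calls it adds for the difference between lines are not given.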

Additional observations from a re-analysis of the deposited data

Results flagged for a closer look

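For 9 members the change with selection differed between HTB56 and A549 by the limma test of the difference itself. These are 25.7% of the 35 tested, beside 11.8% of all genes. The HTB56 change minus the A549 change was 1.64 for IL18, -1.15 for TNFSF15, -1.46 for CCL2, -1.11 for CX3CL1, -0.95 for NFKBIZ, -0.82 for TNFAIP3, -1.57 for IRAK2, -1.61 for SERPINA3 and -1.36 for CFB. The changes of IRAK2 (-0.98 in HTB56, 0.58 in A549) and NFKBIZ (-0.38 in HTB56, 0.57 in A549) have opposite signs, and that of IRAK2 was called in HTB56. In A549 it was called with the replicate block (0.0495), over the A549 arrays alone (0.0352) and without H0R replicate 2 (0.0293). IL18 rose in HTB56, where H0R lay near background, and changed by -0.09 in A549, uncalled. The CFB difference (limma adjusted p = 0.0426) lost its call under several alternatives, as given above. SERPINA3 was dim in HTB56, at means of 3.97 in H3R and 3.99 in H0R, which limits that side of its difference.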

How the results depend on the processing

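Alternatives were 2 other filters on dim probe sets, the mean of a gene's probe sets, median centring, cyclic loess, the arrays compared alone, the replicate block, eBayes with trend and robust settings, and leaving out each array. No called change of a member turned its sign under any of them. Of the called members, 6 of 7 in A549, 3 of 4 in HTB56, 8 of 9 for the difference between lines, 21 of 25 in unselected and 26 of 29 in selected cells kept their call under all in which they were tested. The filter at the 40th percentile removed IL1B, called in both states, and TNF, called in unselected cells, before the test. With the replicate block the count in HTB56 was 9, against 4 without it, and the A549, difference, unselected and selected counts were 10, 11, 28 and 30. The calls over all genes were also more with the block, at 562 against 297 in A549, 4744 against 3298 in HTB56, 3458 against 2000 for the difference, 9093 against 7648 in unselected and 8933 against 7554 in selected cells. The additional calls not named above were CSF3 (limma adjusted p = 0.0295), NFKB2 (0.0378) and SOD2 (0.0126) in unselected cells and TNF (0.0462) in selected ones. Without 1 array, 6 to 9 members were called in A549, 3 to 6 in HTB56, 8 to 10 for the difference, 22 to 26 in unselected and 26 to 30 in selected cells. Over all genes, these fits called 179 to 286 in A549, 2491 to 3432 in HTB56 and 1524 to 1951 for the difference. They called 6705 to 7805 in unselected and 6656 to 7669 in selected cells, of 16939 tested. The unselected calls that an alternative ended were IL1B, TNF, TNFSF15 and CCL5, and the selected ones NFKB1, RELA and NFKBIE. The unselected difference of TNFSF15 was -0.25 without A0R replicate 3, against -0.39 over all arrays. Differences near background, such as IL6 and IL18 in H0R, are limited by the signal. SERPINA3, CXCL16 and CCL20 were also dim in HTB56, with group means from 3.94 to 4.47. The sizes of their differences between the lines thus depend on background.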
